A study of Mus musculus with 18 samples.

Results

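Chemokines are small secreted proteins that draw cells up a concentration gradient by binding receptors coupled to G proteins. CC and CXC chemokines are named for the spacing of their first cysteines. In marrow, stromal cells hold blood-forming stem cells and B cell precursors in place with Cxcl12, which binds Cxcr4 and the scavenging receptor Ackr3. Ccl2 and Ccl7 act through Ccr2, by which monocytes leave the marrow, while Cxcl1 and Cxcl5 act on neutrophils through Cxcr2. Genes for inflammatory chemokines are known targets of NF-kB, and Cxcl10 is a known target of interferon signaling. The 10 genes described here, 5 CC ligands (Ccl2, Ccl5, Ccl7, Ccl8, Ccl9) and 5 CXC ligands (Cxcl1, Cxcl5, Cxcl10, Cxcl12, Cxcl14), were taken by symbol from the 54347 genes of an RNA-seq count table of mouse mesenchymal stem cells (MSC). They were selected on the whole series with earlier results from these 18 libraries in view, among them a fall of Ccl9 with CK666 in Arp4 knockdown cells. The levels and calls below therefore describe these genes and are not independent evidence about them.

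All cells were marrow MSC of male C57BL/6J mice, with 3 libraries in each of 6 groups. In the first experiment untransfected cells were left untreated (control), treated with CK666, which inhibits the branching of actin filaments by the Arp2/3 complex, or treated with cytochalasin D (CytoD), which blocks actin polymerization. In the second experiment all 9 cultures were transfected, with control siRNA (siControl), with siRNA against Arp4 (siArp4), the actin-related protein encoded by Actl6a, or with siRNA against Arp4 followed by CK666 (siArp4+CK666). A group with control siRNA and CK666 is not analysed here, and the sources used here give no age of the mice. The cells were a primary line made from the marrow of several mice, and nothing in the labels says that replicates came from separate animals, so p-values measure the spread between these libraries. Library totals ranged from 18075610 to 24733212 estimated counts. Actl6a fell from 896 ± 209 normalised counts in siControl (SD, n = 3) to 41.7 ± 20.1 under siArp4, and with CK666 as well it was 16.8 ± 6.76. Replicates of siControl resembled each other least: Pearson's r across 10319 genes, which are not independent replicates, was 0.812 to 0.936 there and at least 0.935 within each other group. The mesenchymal genes Col1a1 and Pdgfrb reached at least 13979 and 2899 counts in each library, while Thy1 was at 0 in all 18. Lymphocyte markers were at 0 in all libraries for 4 of 6 genes, endothelial and granulocyte markers for 2 of 5 each. Of 10 macrophage markers 6 reached 10 counts in some library. Cd68, Csf1r, Cd14 and Lyz2 had at least 18, 13, 40 and 11 counts in every library. Ptprc and Itgam had at most 1 count in any library. The summed level of the list was 9.11 to 19.8 CPM (counts scaled to the library total) in the first experiment. In the second experiment it was 7.43 to 18.6 CPM.

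The chromosome positions and promoter bases of the most abundant or most responsive members with a RefSeq entry are shown first. Ccl2 (chr11:82035571-82037453, plus strand, GRCm38), Ccl7 (chr11:82045712-82047525, plus) and Ccl8 (chr11:82115185-82116799, plus) lie in 1 cluster, with 8.26 kb between Ccl2 and Ccl7 and 67.66 kb between Ccl7 and Ccl8. Ccl5 (chr11:83525778-83530518, minus) and Ccl9 (chr11:83572919-83578636, minus) form another pair on the same chromosome, 42.4 kb apart. Cxcl5 (chr5:90759360-90761624, plus), Cxcl1 (chr5:90891241-90893115, plus) and Cxcl10 (chr5:92346638-92348889, minus) lie on chromosome 5, Cxcl12 (chr6:117168535-117181367, plus) on chromosome 6 and Cxcl14 (chr13:56288643-56296551, minus) on chromosome 13. RefSeq promoter windows of build GRCm38.p6 matched 6 of the 10 members; Ccl2, Ccl5, Ccl7 and Cxcl5 had none. The 250 bases before the start of Cxcl12 (chr6:117168285-117168534, plus strand), Ccl9 (chr11:83578637-83578886, minus strand) and Cxcl1 (chr5:90890995-90891244, plus strand) are printed 5′ to 3′, counted from the RefSeq start, which for Cxcl1 lies a few bases past the gene start given above, since these genes gave the largest level, the largest fall with CK666 in knockdown cells and the most frequent rise. Capitals mark each match to a motif on either strand.
Cxcl12: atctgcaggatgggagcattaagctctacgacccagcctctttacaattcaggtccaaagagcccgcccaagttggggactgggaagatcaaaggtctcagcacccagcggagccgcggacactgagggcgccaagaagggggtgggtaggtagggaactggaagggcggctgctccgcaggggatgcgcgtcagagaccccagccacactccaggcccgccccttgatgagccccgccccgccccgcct
Ccl9: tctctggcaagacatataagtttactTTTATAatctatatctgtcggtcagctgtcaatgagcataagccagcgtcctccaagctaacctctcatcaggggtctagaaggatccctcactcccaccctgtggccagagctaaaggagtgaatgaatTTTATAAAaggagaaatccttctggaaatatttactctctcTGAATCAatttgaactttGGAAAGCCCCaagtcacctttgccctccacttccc
Cxcl1: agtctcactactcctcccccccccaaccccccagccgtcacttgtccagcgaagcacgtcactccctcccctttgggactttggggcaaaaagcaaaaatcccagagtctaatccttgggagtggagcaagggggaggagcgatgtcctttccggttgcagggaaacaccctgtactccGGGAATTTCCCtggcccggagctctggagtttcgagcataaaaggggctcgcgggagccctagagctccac

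The motifs searched on both strands were the kappaB consensus, AP-1 (TGANTCA), the CArG box consensus, TEAD (GGAATG) and TATAAA. In Ccl9 the capitals are, from the 5′ end, TTTATA on its own, a pair of overlapping TATAAA matches on opposite strands, TGAATCA as AP-1 and GGAAAGCCCC as kappaB on the minus strand of the gene. In Cxcl1 GGGAATTTCCC holds overlapping kappaB matches on both strands, and the Cxcl12 window holds no match to any of these motifs. The kappaB consensus was found in 3 of the 6 member windows (Ccl9, Cxcl1, Cxcl10) and in 3.9% of all 32817 windows of the same length. AP-1 matched in 2 of 6 (Ccl9, Cxcl10) and 6.75% of all, and TATAAA in 2 (Ccl8, Ccl9) and 12.4%. TEAD and CArG matches were in 0 of 6, against 12.6% and 1.47% of all windows. The interferon-stimulated response element was searched as well and left out after its matches had been seen. A short form matched in the Cxcl10 and Cxcl14 windows, and the full consensus in no member window. No share over all windows is given for it. These matches describe letters in a window; binding was not measured in these RNA libraries.

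Levels were read as normalised counts, which are estimated counts divided by a size factor of the library, and compared between genes only per kilobase of exon. Cxcl12 was the highest member per kilobase in all 6 groups and Ccl7 was second in all 6. Cxcl12 had 4109 normalised counts per kilobase in control, against 1406 for Ccl7, 503 for Ccl9, 270.4 for Ccl2 and 18.2 for Cxcl1. Cxcl14 (5.74), Ccl8 (1.93), Ccl5 (0.652) and Cxcl10 (0.141) followed, and the control libraries of the last 3 overlapped in range. Those of Cxcl14 (2.76 to 8.22) also overlapped those of Ccl8 (up to 3.95). Cxcl5 had no count in any library, and a zero count still leaves room for up to 3. The mean share of Cxcl12 in all counts of a library ran from 0.0591% in siArp4 to 0.554% in CytoD. In siArp4+CK666 the order changed below the first 2 places, where Cxcl1 came next at 108 normalised counts per kilobase, followed by Ccl9 at 45.9, Ccl8 at 28.2 and Ccl2 at 15.1.

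**Figure D1:**
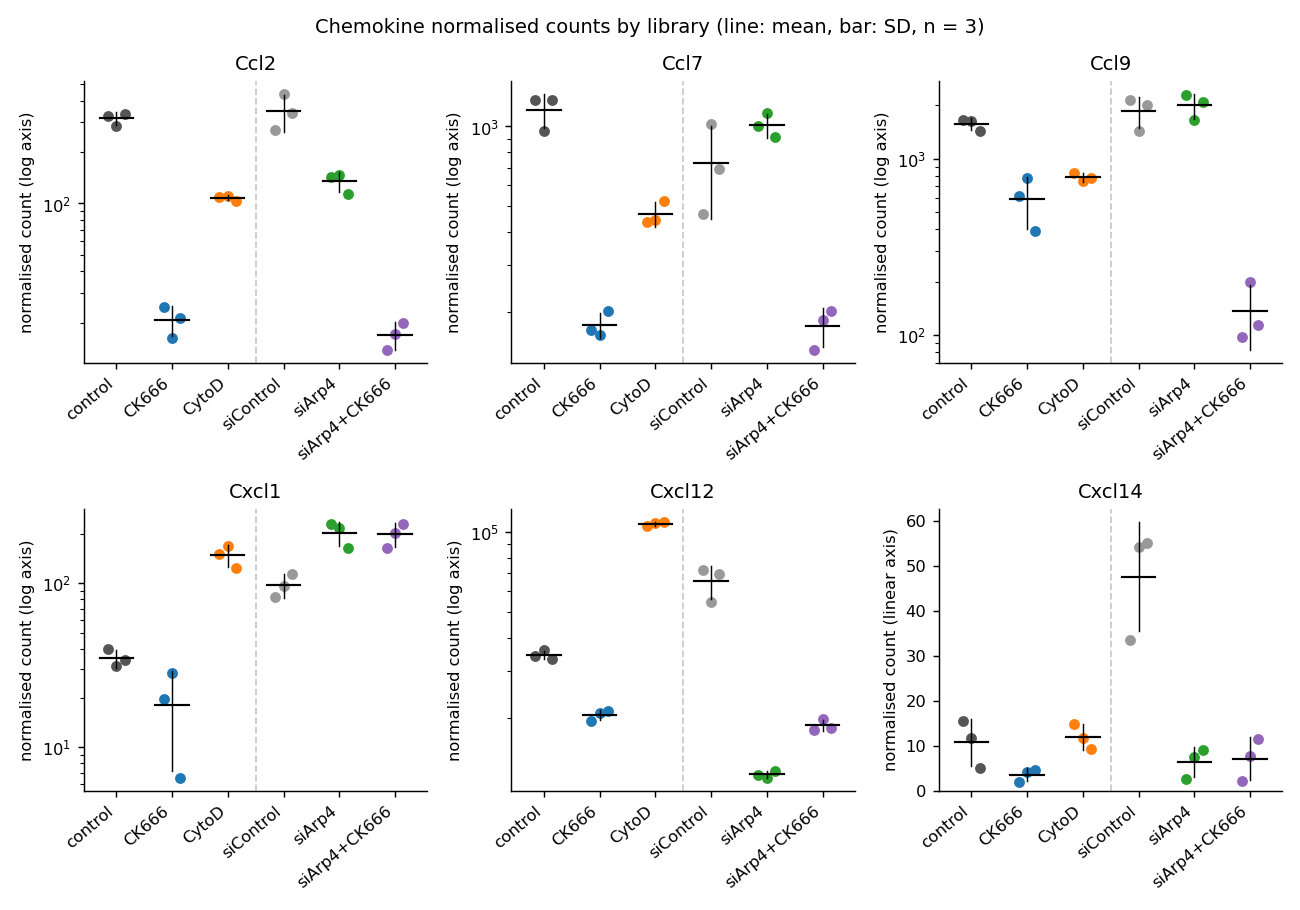
Normalised counts of 6 chemokine genes in each of 18 libraries, on log axes except for Cxcl14, with the untransfected experiment left of the dashed line and the siRNA experiment right of it; points are libraries, horizontal lines means and vertical bars SD (n = 3). Ccl2 and Ccl7 are lowest in both groups given CK666, Ccl9 is lowest in siArp4+CK666, and Cxcl12 is highest in CytoD (mean 107667) and lowest in siArp4 (mean 12265).

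CK666 lowered the CCR2 ligands most. Ccl2, the main monocyte attractant of the set, was at 328, 283 and 337 normalised counts in the control libraries and at 24.6, 16.3 and 21.4 with CK666. All 3 treated libraries lay far below the controls, a log2 fold change of -3.93 ± 0.25 (SE), or 15.2-fold lower. In bulk RNA, fewer cells that make a transcript and less of it per cell cannot be told apart. Ccl7, its neighbour on chromosome 11, was at 1258, 962 and 1252 in control and at 172, 164 and 202 with CK666, a log2 fold change of -2.69 ± 0.16. Ccl9, a ligand of Ccr1, was at 1650, 1631 and 1440 in control and at 614, 781 and 390 with CK666, -1.40 ± 0.21 on the log2 scale. The groups did not overlap for either gene, and the CK666 libraries of Ccl9 were the more spread of the 2.

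No CXC ligand was called with CK666. Cxcl12 was at 34247, 35896 and 33409 normalised counts in control and at 19507, 20851 and 21312 with CK666. This 1.68-fold fall was larger than the spread between replicates (log2 fold change -0.75 ± 0.07, DESeq2 adjusted p = 4.59e-23) and smaller than the 2-fold minimum used for calls. Cxcl1 was at 39.7, 31.2 and 34.2 in control and at 19.7, 28.5 and 6.51 with CK666 (log2 fold change -0.95, 95% interval -1.77 to -0.14, DESeq2 adjusted p = 0.0559). Without CK666 replicate 2 it was -1.42 and passed. Cxcl14, a chemokine whose receptor is debated, had 16, 12 and 5 counts in control and 2, 4 and 5 with CK666, a change that did not pass (-1.60, interval -3.13 to -0.07). Ccl5, Ccl8 and Cxcl10 had at most 2 counts in every library of both groups.

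By the rule used throughout (absolute log2 fold change over 1 and adjusted p below 0.01 by DESeq2 over all genes), CK666 changed 3 of the 6 members tested, 0 upward and 3 downward (Ccl2, Ccl7, Ccl9). Over all genes tested, 11.0% were called in this comparison, 4.89% higher and 6.06% lower. The median log2 fold change was -1.50 over the 6 members and 0.01 over all genes tested. Among other lists, 1 of 5 macrophage markers tested, from a list of 10, was lower with CK666 (Cd14, 111 ± 9.62 to 47.1 ± 5.76 normalised counts), and its part in the result was not tested. The summed level of 12 mesenchymal markers was 9301 to 9953 CPM in control and 4887 to 5957 with CK666, with Ly6a (-1.06) and Col1a1 (-1.48) called lower of 10 tested, and its part was not tested either.

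CytoD, which also acts on actin, lowered Ccl2 and Ccl7 and raised 2 CXC ligands, with Ccl9 at the limit of a call. Cxcl12 stood at 105514, 108013 and 109475 normalised counts, 3.12-fold over control and with the replicates close together (log2 fold change 1.64 ± 0.07). Cxcl1, the neutrophil attractant, was at 152, 168 and 124, which is 4.23-fold over control (2.08 ± 0.38). Both genes were above control in 3 of 3 libraries. Ccl2 fell to 110, 111 and 104 (-1.55 ± 0.19) and Ccl7 to 436, 444 and 526 (-1.30 ± 0.16). Ccl9, at 832, 745 and 781, lay exactly at the fold minimum (-1.0013 ± 0.21): it was called here, but not with another normalization, with edgeR, with a count filter or with the replicate block (-0.992), nor without control replicate 1 or 2 or CytoD replicate 2 or 3 (-0.967 to -0.999). Cxcl14 was at 14.9, 11.6 and 9.27 normalised counts, which overlapped control (0.14, interval -1.22 to 1.50).

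In all, 5 of 6 members tested were called for CytoD, 2 higher and 3 lower, against 9.12% of all genes tested (4.80% higher and 4.32% lower). The median log2 fold change was -0.43 over the members and 0.01 over all genes. Of 4 macrophage markers tested, from a list of 10, 2 were higher with CytoD, Cd68 (41.8 ± 12.48 to 112 ± 0.712 normalised counts) and Lyz2 (35.4 ± 9.62 to 74.8 ± 12.2), and the summed level of that list was 11.0 to 13.9 CPM in control and 18.4 to 19.8 with CytoD. Its part in the rise of Cxcl12 and Cxcl1 was not tested. Of 10 mesenchymal markers tested Cd44 was lower (-1.05).

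Set directly against each other, CK666 cells held less of 4 members than CytoD cells. Cxcl1 was 8.12-fold lower (log2 fold change -3.03 ± 0.40), Cxcl12 5.24-fold lower (-2.39 ± 0.07), Ccl2 5.22-fold lower (-2.38 ± 0.26) and Ccl7 2.61-fold lower (-1.38 ± 0.17). Ccl9 did not separate the inhibitors, with overlapping libraries and a log2 fold change of -0.40 (interval -0.82 to 0.01, DESeq2 adjusted p = 0.116). Cxcl14 was at -1.74 (interval -3.27 to -0.21, DESeq2 adjusted p = 0.0607). Calls were made for 4 of 6 members, 0 higher and 4 lower, against 11.8% of all genes (5.08% higher and 6.74% lower), with medians of -2.06 over members and -0.03 over all genes. Both comparisons with control and this one share libraries. Lower with CK666 than with CytoD were also 5 of 10 mesenchymal markers tested (Pdgfra, Pdgfrb, Ly6a, Col1a1 and Vcam1, log2 fold changes -1.05 to -1.53). So were 2 of 5 macrophage markers tested (Cd14 at -1.04, Lyz2 at -1.10) and 3 of 6 interferon-side genes, among them Irf1 (-1.11) and Irf7 (-2.53). Of 15 NF-kB genes 2 were lower, Nfkbia (-1.04) and Tnfaip3 (-1.72). Their part in the result was not tested. Ccl5, Ccl8, Cxcl5 and Cxcl10 had at most 2 counts in each library of control, CK666 and CytoD and give no fold change among these groups.

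**Figure D2:**
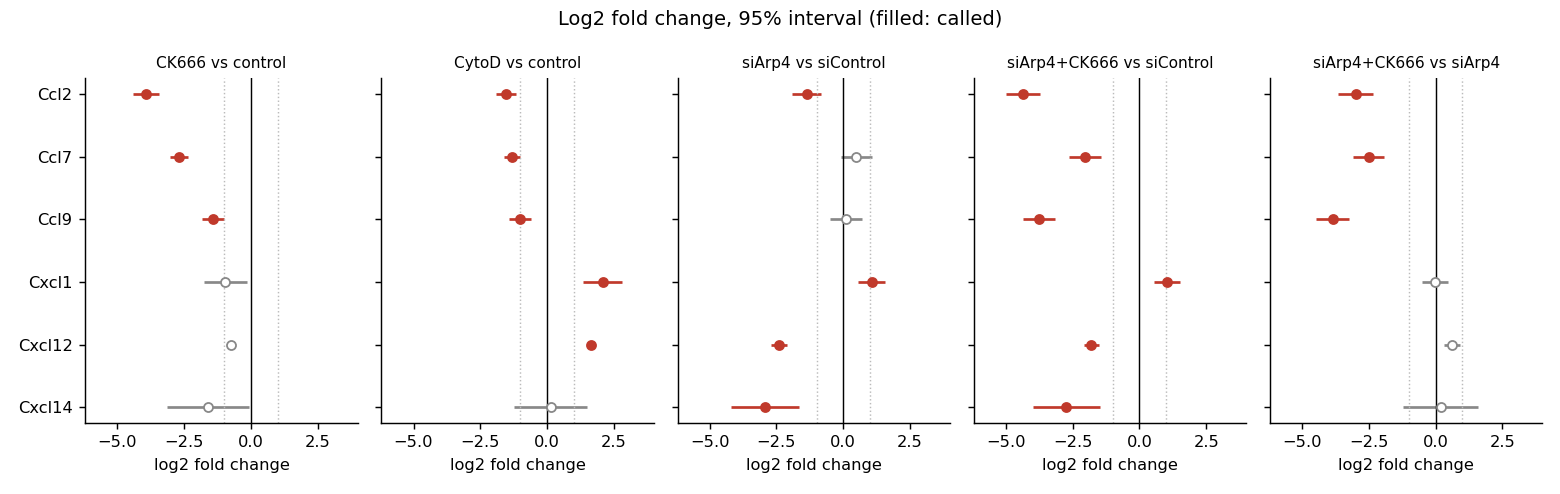
Log2 fold change of 6 chemokine genes in 5 comparisons, with dotted lines at the 2-fold minimum in each direction; points are DESeq2 estimates, bars 95% intervals, and filled red points passed the call rule. Ccl2 is left of 0 in all 5 panels, while Cxcl12 is left of 0 with CK666, siArp4 and siArp4+CK666 against their controls and right of 0 with CytoD (1.64).

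Knockdown of Arp4 gave a different set of chemokine changes. Cxcl12 was at 71998, 54587 and 69332 normalised counts in siControl and at 12215, 11916 and 12664 in siArp4. All 3 knockdown libraries lay far below the lowest siControl library, and the log2 fold change was -2.41 ± 0.15, or 5.33-fold lower. Cxcl14 went from 33.5, 54.1 and 55.1 to 2.53, 7.56 and 9.02 normalised counts (-2.92 ± 0.65), and Ccl2 from 269, 440 and 341 to 144, 147 and 113 (-1.37 ± 0.27). Cxcl1 rose from 82.2, 96.8 and 114 to 229, 218 and 165 (1.07 ± 0.25), close to the fold minimum, and was under it without siControl replicate 1 (0.95) or siArp4 replicate 1 (0.98). Ccl7 was at 470, 1021 and 691 in siControl and 1001, 1124 and 915 in siArp4, so that its groups overlapped (0.48, interval -0.10 to 1.06). Ccl9 was at 2141, 1434 and 2019 against 2283, 1657 and 2082 (0.11, interval -0.48 to 0.69).

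Of Ccl8, Cxcl10 and Ccl5, which lay near the detection floor, only Ccl8 was called in siArp4 against siControl. Ccl8 had 0, 2 and 2 counts in siControl and 14, 16 and 9 in siArp4, which did not overlap (log2 fold change 3.23, interval 1.28 to 5.17, DESeq2 adjusted p = 0.00504). That call was lost with edgeR (adjusted p = 0.0182) and when any 1 of the siControl or siArp4 libraries, or siArp4+CK666 replicate 2, was left out (adjusted p = 0.0103 to 0.0378). Cxcl10 had 24, 1 and 1 counts in siControl and 13, 19 and 26 in siArp4, and 1 siControl library alone made the groups overlap (1.32, interval -0.49 to 3.13). Without siControl replicate 1 the value was 4.14 and passed. Ccl5, a T cell and monocyte attractant, had 1, 3 and 0 counts against 10, 13 and 2 (2.53, interval 0.19 to 4.88, DESeq2 adjusted p = 0.0878).

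**Figure D3:**
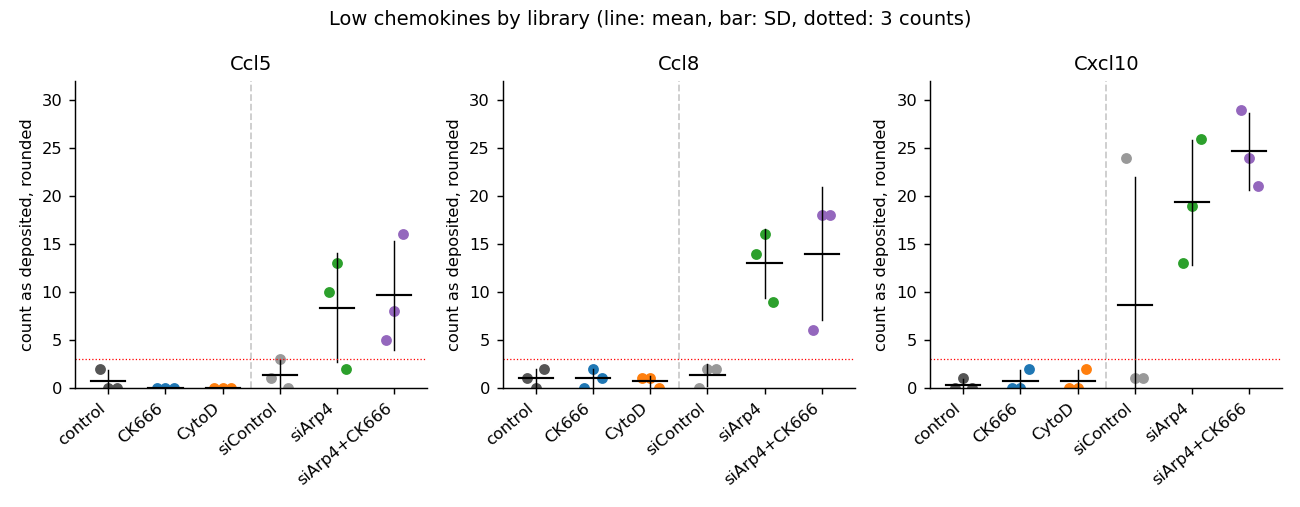
Counts as deposited, rounded to whole numbers, of Ccl5, Ccl8 and Cxcl10 in each of 18 libraries, with the dotted line at 3 counts; points are libraries, horizontal lines means and vertical bars SD (n = 3). All untransfected libraries lie at 2 counts or fewer, the knockdown groups lie between 2 and 29, and siControl replicate 1 has 24 counts of Cxcl10.

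Of 9 members tested, 5 were called for siArp4 against siControl, 2 higher (Ccl8, Cxcl1) and 3 lower (Ccl2, Cxcl12, Cxcl14), against 16.2% of all genes tested (6.69% higher and 9.49% lower). The median log2 fold change was 0.48 over the members, which is positive while more members were called lower, and -0.05 over all genes. The count was 4 without any 1 of the siControl libraries and 3 without siArp4 replicate 1. The mesenchymal list moved in places too: Col1a1 rose from 25998 ± 7739 to 84628 ± 4055 normalised counts and Ly6a from 1015 ± 261 to 2710 ± 249, and their part in these results was not tested.

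With both perturbations 7 members were called, more than in any other comparison. Against siControl, Ccl2 was 20.6-fold lower at 13.8, 17.2 and 20.02 normalised counts (log2 fold change -4.36 ± 0.33), and Ccl9 was 13.5-fold lower at 98.3, 201 and 114 (-3.76 ± 0.31). Ccl7 stood at 144, 187 and 201 (-2.03 ± 0.30), Cxcl12 at 18081, 19772 and 18406 (-1.80 ± 0.15) and Cxcl14 at 2.12, 7.63 and 11.6 (-2.74 ± 0.65). None of these libraries overlapped siControl. Cxcl1 was again higher, at 164, 204 and 231 (1.03 ± 0.25), and so was Ccl8, with 6, 18 and 18 counts (3.39, interval 1.45 to 5.33), a call that edgeR did not make (adjusted p = 0.012). The call for Cxcl1 was lost without siControl replicate 1 or siArp4+CK666 replicate 3 (0.92 each), and that for Ccl8 without siControl replicate 1 or 3 or siArp4+CK666 replicate 2 or 3 (adjusted p = 0.0135 to 0.02). Cxcl10 had 29, 24 and 21 counts (1.72, interval -0.08 to 3.53) and Ccl5 5, 8 and 16 (2.82, interval 0.48 to 5.16), and neither passed, although Cxcl10 did without siControl replicate 1 (4.55). The calls were 7 of 9 members tested, 2 higher and 5 lower, against 20.4% of all genes (8.06% higher and 12.4% lower), with medians of -1.80 over members and -0.05 over all genes. Of 10 mesenchymal markers tested 3 were lower, Ly6a (1015 ± 261 to 158 ± 24.99 normalised counts), Cd44 (813 ± 41.8 to 254.5 ± 52.5) and Eng (53.7 ± 20.3 to 9.26 ± 5.72). Kdr, the only endothelial marker tested, was higher (3.79 ± 1.84 to 23.4 ± 2.10), and Cdh5 and Emcn were at 0 in every library. The summed level of the endothelial list was 0.25 to 0.32 CPM in siControl and 1.06 to 1.26 in siArp4+CK666. The part of these markers in the result was not tested.

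Within knockdown cells, CK666 lowered 3 CC ligands, and no CXC ligand was called. Ccl9, the value by which this gene drew attention earlier, went from 2283, 1657 and 2082 normalised counts in siArp4 to 98.3, 201 and 114, a 14.6-fold fall that is given as a description. Ccl2 fell 7.93-fold (log2 fold change -2.99 ± 0.34) and Ccl7 5.71-fold (-2.51 ± 0.30). Cxcl12 went the other way, 1.53-fold up in 3 of 3 libraries (0.61 ± 0.15, DESeq2 adjusted p = 0.000701), below the fold minimum. Cxcl1 stayed near the siArp4 level (-0.03, interval -0.52 to 0.45), which covers changes of up to about that interval in either direction. Intervals were wide for Ccl5 (0.29, -1.69 to 2.26), Ccl8 (0.16, -1.26 to 1.59), Cxcl10 (0.40, -1.35 to 2.14) and Cxcl14 (0.19, -1.21 to 1.58). The calls were 3 of 9 tested, 0 higher and 3 lower, against 5.75% of all genes (1.63% higher and 4.12% lower), with medians of 0.16 over members and 0.02 over all genes. Of 10 mesenchymal markers tested 3 were lower as well, Ly6a (2710 ± 249 to 158 ± 24.99 normalised counts), Cd44 (524 ± 26.8 to 254.5 ± 52.5) and Col1a1 (84628 ± 4055 to 34282 ± 2519). The summed level of that list was 10739 to 12313 CPM in siArp4 and 5118 to 6512 in siArp4+CK666, and its part in the result was not tested.

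The effect of CK666 was then compared between untransfected and knockdown cells by an interaction term over 18 libraries. Transfection goes with the second experiment, so the term compares these settings as a whole and not the knockdown alone. For Ccl9 the effect was -1.40 without and -3.86 with knockdown, a difference of -2.46 ± 0.38 (DESeq2 adjusted p = 7.36e-09). The fall in knockdown cells, by which Ccl9 drew attention earlier, enters this difference. Its value and p are therefore given as a description. For Cxcl12 the effect was -0.75 without and 0.61 with knockdown, a difference of 1.36 ± 0.13 (adjusted p = 1.4e-22). The sign of the CK666 effect on Cxcl12 thus differed between the settings, and the groups did not overlap in either. For Ccl2 the difference was 0.94 (interval 0.16 to 1.72), for Ccl7 0.17 (-0.51 to 0.86), for Cxcl1 0.92 (0.06 to 1.78) and for Cxcl14 1.79 (-0.11 to 3.69), and none of these passed. Ccl5, Ccl8, Cxcl5 and Cxcl10 give no difference, since their untransfected libraries had at most 2 counts. The calls were 2 of 6 tested, 1 higher and 1 lower, against 4.42% of all genes (1.90% higher and 2.52% lower), with medians of 0.93 over members and -0.03 over all genes. In the same test Pdgfrb (1.01) and Ly6a (-3.05) differed among 10 mesenchymal markers and Cd14 (1.33) among 4 macrophage markers. Of 6 interferon-side genes 1 was called higher. The part of these genes in the member differences was not tested.

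**Figure D4:**
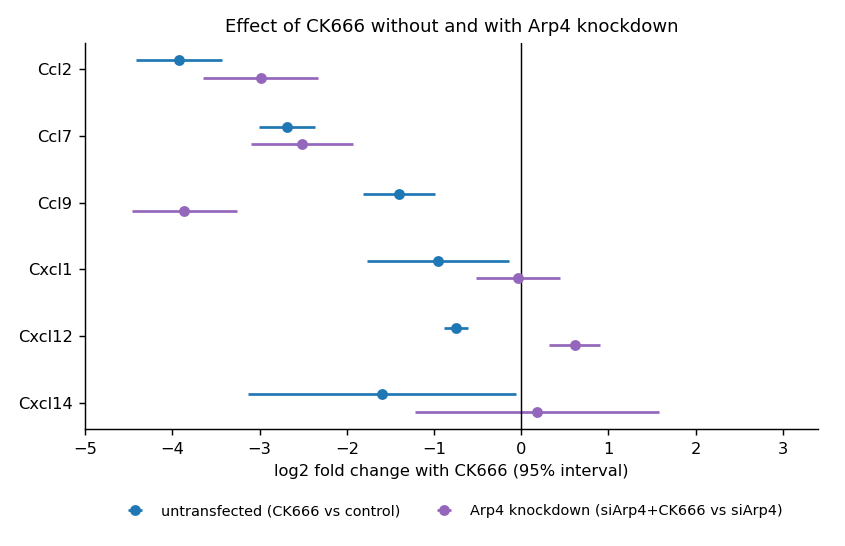
Log2 fold change with CK666 for 6 chemokine genes, in untransfected cells (blue) and in Arp4 knockdown cells (purple); points are DESeq2 estimates and bars 95% intervals. The bars of Ccl7 overlap, those of Ccl9 lie apart (-1.40 and -3.86), and those of Cxcl12 lie on opposite sides of 0 (-0.75 and 0.61).

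Control siRNA cells already differed from untransfected control. Cxcl14 was 4.59-fold higher (log2 fold change 2.19 ± 0.56) and Cxcl1 2.89-fold higher (1.53 ± 0.30), while Cxcl12 was 1.96-fold higher (0.97 ± 0.09), just under the minimum. Ccl2 (0.20, interval -0.21 to 0.60) and Ccl9 (0.29, interval -0.22 to 0.81) overlapped, Ccl7 was at -0.61 (interval -1.09 to -0.14), and Cxcl10 rested on 1 library. The calls were 2 of 7 tested, 2 higher and 0 lower, against 24.1% of all genes (14.1% higher and 10.1% lower), with medians of 0.97 over members and 0.04 over all genes. The count was 4 without siControl replicate 2, when Cxcl10 and Cxcl12 passed, and 3 without siControl replicate 3, when Cxcl10 passed. Ccl5, Ccl8 and Cxcl5 had at most 3 counts in each library of both groups and give no fold change. Among markers, Ly6a (1.25) and Vcam1 (1.22) were higher and Cd44 (-1.75) and Col1a1 (-1.16) lower, of 10 mesenchymal markers tested. Fcer1g was higher among 5 macrophage markers tested (0.316 ± 0.548 to 9.61 ± 7.45 normalised counts), and so was Camp, the only granulocyte marker tested (1.64 ± 1.53 to 17.9 ± 7.55), while S100a9 and Mpo were at 0 in every library. Their part in the member changes was not tested. Transfection and experiment cannot be told apart in this comparison.

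Ccl2 and Ccl7 lie side by side and share a receptor, yet their proportion was not fixed. Per kilobase, Ccl7 was 5.18 ± 0.322 times Ccl2 in control (SD, n = 3), 12.6 ± 2.30 in CK666 and 6.17 ± 0.872 in CytoD. It was 2.89 ± 0.407 in siControl, 10.7 ± 0.808 in siArp4 and 14.9 ± 0.595 in siArp4+CK666. Every CK666 library lay above every control library, and every siArp4 library above every siControl library. In siArp4 against siControl the log2 fold change was -1.37 for Ccl2 and 0.48 for Ccl7, the latter not called.

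**Figure D5:**
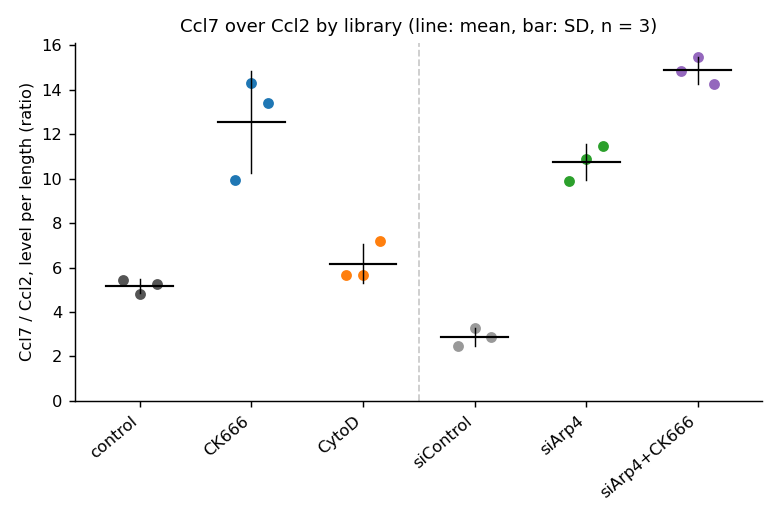
Ratio of Ccl7 to Ccl2, each as normalised counts per kilobase of exon, in each of 18 libraries; points are libraries, horizontal lines means and vertical bars SD (n = 3). The ratio is lowest in siControl (2.48 to 3.30) and highest in siArp4+CK666 (14.3 to 15.5).

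Across all 18 libraries, which share groups and treatments, the log2 levels of Ccl2 and Ccl7 had a Pearson r of 0.917, those of Ccl2 and Ccl9 0.833 and those of Ccl7 and Ccl9 0.816. Once each group's mean was subtracted, Ccl2 and Ccl7 still had 0.819, while Ccl2 and Ccl9 had -0.29 and Ccl7 and Ccl9 -0.32. Cxcl1 and Cxcl12 ran together in the first experiment (0.926 over 9 libraries) and against each other in the second (-0.90 over 9), each with 3 groups whose means enter these values. With group means subtracted over 18 libraries they had -0.18. By the same measure, among 10319 genes with a mean of at least 100 normalised counts, the 2 most like Ccl2 were Tuba1a (0.988) and Osbpl3 (0.964), and the 2 most like Ccl7 were Fhl3 (0.953) and Fam20a (0.949). Glt8d2 (0.933) and Glipr2 (0.91) were most like Ccl9, St6galnac2 (0.952) and C1ra (0.95) most like Cxcl12, and Fam189a2 (0.935) and 2900052L18Rik (0.919) most like Cxcl1. These are descriptions of likeness over the same 18 libraries.

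Other chemokine genes were mostly silent in these cells. Of 31 further ligands on a list, 29 were in the table, 6 reached 10 counts in some library and 14 were at 0 in all. Between Ccl7 and Ccl8 lie Ccl11 and Ccl12, which had at most 1 count. Ccl25 was higher with CK666 (35.3 ± 12.8 to 82.9 ± 34.9 normalised counts, log2 fold change 1.23 ± 0.40), the only 1 of 6 tested to be called there. Cx3cl1, the membrane-bound chemokine, fell in siArp4 from 302 ± 51.7 to 73.3 ± 19.2 (-2.05 ± 0.33) and in siArp4+CK666 to 97.2 ± 35.0 (-1.64 ± 0.32), the only 1 of 7 tested called in each. With CytoD 0 of 6 further ligands were called by DESeq2 or edgeR (1 at an unadjusted p below 0.05), and with CK666 in knockdown cells 0 of 4 (0 at that p). Ccl25 and Ccl27a were higher in siControl than in control.

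Of 23 chemokine receptor genes, 5 reached 10 counts in some library. Ackr3, the scavenging receptor for Cxcl12, had 2, 2 and 7 counts in siControl, 60, 62 and 43 in siArp4, and 1, 6 and 3 once CK666 was added. Its log2 fold change was 3.89 ± 0.68 with knockdown and -3.99 ± 0.69 with CK666 on top. Ackr3 was thus high in the group where Cxcl12 was lowest, but low in the groups with the next lowest Cxcl12. These were siArp4+CK666 (mean 18753 normalised counts of Cxcl12) and CK666 (20557), and Ackr3 was at 0 in every CK666 library. Cxcr4, the signaling receptor, had at most 3 counts in any library. Ccrl2 was also higher in siArp4 (2.60 ± 0.81), Xcr1 in siArp4+CK666 (3.93 ± 1.10 against siControl), and Ccr1, a receptor for Ccl9 and Ccl5, was lower with CK666 (-2.88 ± 0.89) and lower in siControl than in control (-3.05 ± 0.99).

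The genes of the NF-kB and interferon pathways were measured from lists of 15 and 6. With CK666 2 NF-kB genes of 15 were higher, Relb (1.02 ± 0.17) and Ikbkg (1.02 ± 0.19), and 1 was lower, Tnfaip3, the feedback inhibitor, from 613 ± 43.4 to 132 ± 37.5 normalised counts (-2.21 ± 0.22). DESeq2 and edgeR each called 0 of 15 with CytoD and 0 of 15 in siArp4, where 6 and 9 had an unadjusted DESeq2 p below 0.05. Against siControl, siArp4+CK666 changed 3 of 15, with Chuk higher (1.43 ± 0.27), Nfkb2 lower (-1.23 ± 0.18) and Tnip1 lower (-1.30 ± 0.18). Tnfaip3 fell again with CK666 in knockdown cells (-1.32 ± 0.26), as the only 1 of 15. Of 6 interferon-side genes Irf7 was called, higher with CytoD (2.23 ± 0.49), lower in siArp4 (-2.10 ± 0.34) and lower in siArp4+CK666 (-3.72 ± 0.40), the only 1 of 6 called in each of these. With CK666 0 of 6 were called by DESeq2 or edgeR (2 at an unadjusted p below 0.05). Irf7 was also lower with CK666 in knockdown cells (-1.62 ± 0.42). Irf1 and Irf7 were both higher in siControl than in control, by 2.26 ± 0.20 and 3.77 ± 0.39, and Chuk was lower there (-1.29 ± 0.19).

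Among 14 receptors and adaptors upstream, Myd88 was higher with CK666 (1.06 ± 0.13) and with CytoD (1.07 ± 0.13), and no other was called in either. In siControl against control Ifngr2 was higher (1.08 ± 0.25) and Il6st lower (-1.61 ± 0.32). Tnfrsf1b, a receptor for TNF, rose in siArp4 (2.07 ± 0.16) and siArp4+CK666 (2.49 ± 0.16), with Ticam1 also higher in siArp4 (1.09 ± 0.16). In siArp4+CK666 against siControl 2 of the 14 were lower, Il1r1 (232.8 ± 100.1 to 44.4 ± 13.7 normalised counts, -2.39 ± 0.37) and Ifngr1 (1898 ± 196 to 874 ± 38.0, -1.12 ± 0.13). Il1r1, the receptor for interleukin 1, had 354, 218 and 311 counts with knockdown alone and 57, 39 and 34 with CK666 added (-2.67 ± 0.37). Its CK666 effect differed between knockdown and untransfected cells by -2.12 ± 0.40, the only 1 of the 14 called in that test. Its part in the member changes was not tested.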

How the data were processed

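RNA of 18 libraries, 3 in each of 6 groups, was analysed. Estimated counts per gene were deposited by the authors, made with Salmon 1.2.1 on GRCm38 (mm10) per the submitters' processing notes; how transcripts were summed to genes is not given in the sources used here. Counts were rounded, with a shift of any library's total of up to 277. Symbols matched for 54094 of 54347 genes, and 0 columns of per-sample values were left unused. DESeq2 1.42.0 (R 4.3.3) was fitted with group as the only term, over the 9 libraries of an experiment, or over all 18 for the interaction and for siControl against control. P-values were adjusted by Benjamini-Hochberg over all genes, and intervals are 95% Wald intervals. No fold change is given where all libraries compared had at most 3 counts. edgeR 4.0.16, TMM size factors, a filter (10 counts in 3 libraries), a test against a 2-fold change, pairs of groups fitted alone, a replicate block and each library left out were the alternatives. Fits were tested on simulated data.

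The members and lists were chosen with earlier results of these data known. By rule, all 10 members were named in each comparison or as counts where too low for a fold change, list genes were counted and named only where called, and the 2 nearest genes were named for members with a mean of at least 100. Same-numbered libraries of control and CK666 deviated together (r 0.165 to 0.293), while in other group pairs r ran from -0.576 to 0.743. The main fits did not pair libraries by replicate number, which entered only as the block among the alternatives. Replicates differed beyond counting noise in every group. Values of 1 list gene are not reported here.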

Additional observations from a re-analysis of the deposited data

Results flagged for a closer look

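The effect of CK666 on Ccl9 differed between Arp4 knockdown cells and untransfected cells by -2.46 on the log2 scale, in an interaction test in DESeq2 over 18 libraries. The Ccl9 fall in knockdown cells was known when the genes were chosen, so this difference is given as a description. The effect of CK666 on Cxcl12 differed by 1.36 in the same test, with opposite signs in the 2 settings. Transfection and experiment go with the knockdown in both and cannot be told apart from it.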

How the results depend on the processing

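Of 1037 alternative values of single members, 969 kept their direction and their side of the threshold, 46 no longer passed, 9 newly passed and 13 changed sign; of the last, 0 belonged to a called member. Tested against a 2-fold change in DESeq2, the members called were 1 for CytoD against control, 1 for siArp4 and 3 for siArp4+CK666 against siControl, 0 for the interaction and 0 for siControl against control; in the last 2 comparisons 2 members each had an unadjusted p below 0.05 in that test, and edgeR called 2 in each by the usual rule. This test asks for more than the rule used, by construction. With a library left out, members called ranged from 3 to 5 for siArp4 against siControl (3 without siArp4 replicate 1) and from 2 to 4 for siControl against control (4 without siControl replicate 2); the cause was not tested. The sign changes came from leaving out a library. Ccl2 in siControl against control ranged from -0.015 to 0.36, Cxcl14 with CytoD from -0.19 to 0.49 and Ccl9 in siArp4 against siControl from -0.059 to 0.23. For siArp4+CK666 against siArp4, Ccl5 ranged from -0.33 to 0.91, Ccl8 from -0.10 to 0.52, Cxcl1 from -0.16 to 0.10 and Cxcl14 from -0.34 to 0.62. With the replicate block, 4 members in place of 5 were called for CytoD, where Ccl9 was at -0.992; the block changed no other member's call. A variance stabilizing scale left 4 member pairs with r over 0.8, as before, and the longest transcript left Cxcl12 and Ccl7 in the first places in 6 of 6 groups. Depth limits Ccl5, Ccl8, Cxcl10 and Cxcl14, which had few counts, and intervals cover the spread between libraries.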
